A study of Mus musculus with 3 samples.

Results

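The AP-1 transcription factors described here are 8 genes, Fos, Fosb, Fosl1, Fosl2, Jun, Junb, Jund and Atf3, out of 28693 genes in the matrices. They were taken by symbol, and their unique molecular identifiers (UMIs, counted cDNA molecules) were summed over barcodes that had 200 or more genes detected and no more than 10% of UMIs from mitochondrial genes. All 8 had UMIs in each of the 3 libraries. The study asked how the dermis of mouse abdominal skin changes around pregnancy. Cells were captured with 10x Chromium 3′ chemistry from C57BL/6 mice labelled 8-12 weeks of age, all of the genotype Col1a2creERT2; R26H2B EGFP. This is a tamoxifen-activated Cre under the promoter of a collagen gene together with a nuclear EGFP reporter, and the control mice carried both alleles too. The NP library came from non-pregnant mice given tamoxifen for 3 days and sampled 48 days later. Mice of the dpc16 group were taken on gestation day 16 and those of the dpp42 group on post partum day 42, both after tamoxifen in pregnancy. The number of mice behind a library is not stated in the labels. Each group is 1 library, so no test was possible, and all intervals below cover counting error only.

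AP-1 is a family of basic leucine zipper proteins that bind DNA as pairs. Fos proteins need a Jun partner, Jun proteins also pair among themselves, and Atf3 is a stress-induced partner that can repress or activate. Most of these genes are switched on within minutes by growth factors, wounding or stress through MAP kinases and are as quickly switched off, and handling that turns tissue into single cells is one such trigger. In epidermis, AP-1 pairs act on keratin, cornified envelope and matrix protease genes.

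On GRCm38 (GENCODE M21) the Fos family genes lie at chr12:85473890-85477273 (Fos, plus strand), chr7:19302696-19310051 (Fosb, minus), chr19:5447547-5455946 (Fosl1, plus) and chr5:32135801-32157842 (Fosl2, plus). The Jun family genes lie at chr4:95049034-95052222 (Jun, minus), chr8:84974484-84978718 (Junb, minus) and chr8:70698949-70700616 (Jund, plus). Atf3 lies at chr1:191170296-191218039 on the minus strand. Jun and Jund are single-exon genes in this annotation. Other annotated genes overlap 5 of the members, namely Junos with Jun, Prdx2 with Junb, Gm11175 with Jund, Ccdc85b with Fosl1 and Gm24748 with Atf3. Whether counting used strand is not given in the sources used here, so reads in these overlaps could be assigned either way, and these 5 levels are uncertain to that extent.

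Promoter sequence was available for 7 of the 8 members in RefSeq's table for GRCm38.p6 (not Fosl1). Stretches are shown for the 5 members with a match to any motif searched, because 3 of them, Jun, Junb and Atf3, were high together in the dpc16 library. Each runs 5′ to 3′ over the 150 bases before the RefSeq start site, on the strand of the gene. Capitals mark matches to the short core of the cyclic AMP response element (CRE), TGACG or CGTCA, or to a full CRE (TGACGTCA) with 1 base changed.
Fos, chr12:85473740-85473889, plus strand: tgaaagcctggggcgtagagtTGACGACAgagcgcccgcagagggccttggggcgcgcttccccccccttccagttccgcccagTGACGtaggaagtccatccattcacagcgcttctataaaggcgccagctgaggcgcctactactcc
Fosb, chr7:19310046-19310195, minus strand: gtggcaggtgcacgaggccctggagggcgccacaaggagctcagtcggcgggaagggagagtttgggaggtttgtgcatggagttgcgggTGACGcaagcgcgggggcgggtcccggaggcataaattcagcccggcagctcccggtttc
Jun, chr4:95052223-95052372, minus strand: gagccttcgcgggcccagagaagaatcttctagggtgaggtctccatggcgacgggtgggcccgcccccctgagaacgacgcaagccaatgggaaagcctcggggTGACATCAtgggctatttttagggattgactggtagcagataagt
Junb, chr8:84978749-84978898, minus strand: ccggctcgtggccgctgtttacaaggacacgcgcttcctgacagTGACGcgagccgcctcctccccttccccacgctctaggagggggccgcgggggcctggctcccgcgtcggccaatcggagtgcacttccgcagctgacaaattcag
Atf3, chr1:191183334-191183483, minus strand: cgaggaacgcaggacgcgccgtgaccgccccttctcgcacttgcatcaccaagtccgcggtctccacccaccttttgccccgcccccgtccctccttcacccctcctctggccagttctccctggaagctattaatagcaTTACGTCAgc

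Matches were sought on both strands in the whole window, 250 bases before to 50 bases after the start. The one-base CRE variant of Jun, TGACATCA, sits at -45 to -38 from the start, that of Fos, TGACGACA, at -129 to -122, and that of Atf3, TTACGTCA, at -10 to -3. Fosb and Junb hold the short core only, at -60 to -56 and -106 to -102. Of 32851 promoters in the table, 20.8% held the short core and 11% a one-base CRE variant, and the core overlaps a variant in Fos and Atf3. The AP-1 site itself (TGACTCA or TGAGTCA, in 5.20% of promoters), the exact CRE (1.79%) and the CArG box, the serum response element core (1.63%), matched none of the 7 windows. Sequence more than 250 bases before a start was not searched, so a site further upstream, in Fos or any other member, would not be seen. These windows sit at RefSeq start sites, which for Jund lies 1210 bases upstream of the GENCODE gene start given above, and for Fosl2 and Atf3 671 and 34706 bases downstream of it, so they do not describe the sequence at those gene starts. In Fos, Fosb, Jun and Junb the starts lie within 30 bases of each other. The motifs marked were chosen after their matches were seen. The matches describe these letters only and were not tested against expression.

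The libraries held 1289, 3652 and 1081 kept cells in the order NP, dpc16 and dpp42, against 1289, 3650 and 1081 stated by the submitters. They had 5905715, 19711100 and 5432269 UMIs, and medians of 3119, 4300.5 and 3252 UMIs per cell. Pairs of libraries shared 1 to 6 barcodes. The labels call the cells dermal, yet the leading class by markers was keratinocyte-like, with 78.4, 48.2 and 65.8% of the cells, while fibroblast-like cells took 7.76, 30.7 and 10.3%. Classes were named from markers of clusters made without the AP-1, immediate early and heat shock genes. Clusters 3, 13 and 24 (together 87, 279 and 104 cells in NP, dpc16 and dpp42) stayed unnamed after the naming rule was adjusted with the clusters in view. Doublets were not removed. Levels are given as UMIs of a gene per 1000000 UMIs of the same cells (CPM), and a fold is a ratio of 2 such levels. Both express a share of the cells' RNA, so they do not separate more copies per cell from less of other RNA, and a class sum does not separate a change in each cell from a change in which cells are present.

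The first comparison was between stages in keratinocyte-like cells (1010, 1761 and 711 cells). In the dpc16 library 4 of the 8 AP-1 genes, Fosl1, Jun, Junb and Atf3, stood at least 1.5-fold above NP, and none stood 1.5-fold below. Among all 7935 genes measured in this comparison, 9.57% were at least 1.5-fold higher and 21.1% at least 1.5-fold lower. The median log2 ratio of the members was 0.57, against -0.14 over all measured genes. In dpp42 the same 4 genes were back at or under their NP levels, whereas Fos, Fosb, Fosl2 and Jund stayed within 1.5-fold of NP in both libraries.

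**Figure D1:**
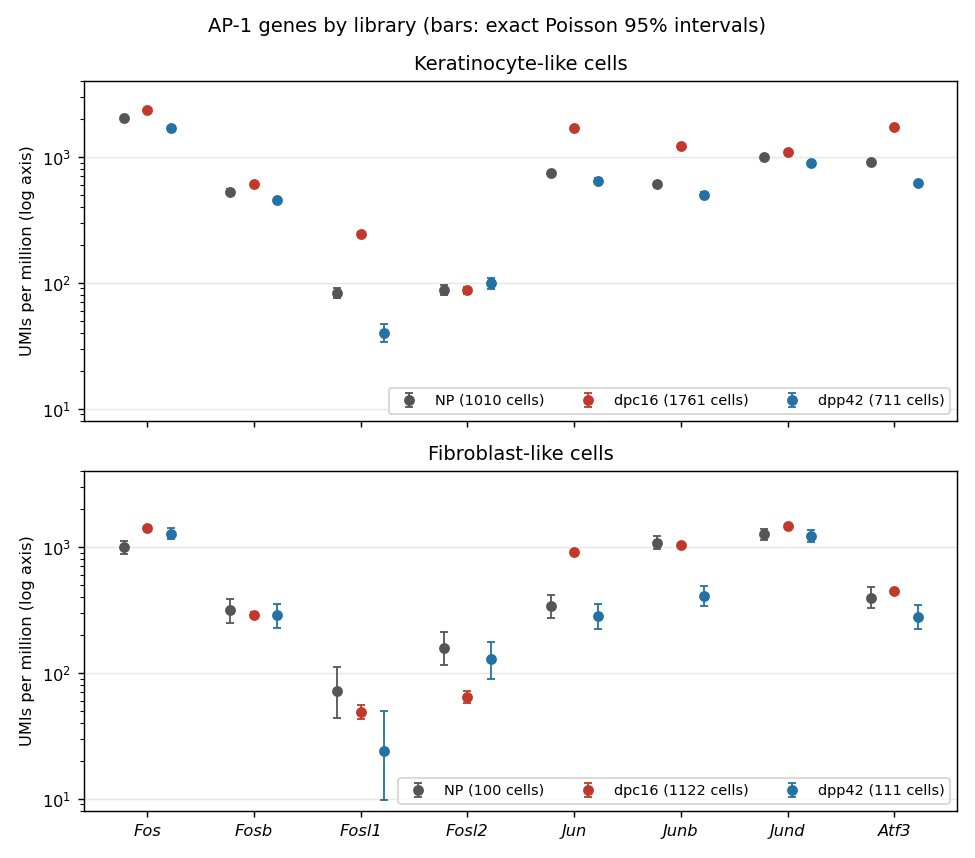
Levels of the 8 AP-1 genes (UMIs per 1000000, log axis) in keratinocyte-like cells (top) and fibroblast-like cells (bottom) of the NP, dpc16 and dpp42 libraries, 1 point per library with exact Poisson 95% intervals. In the upper panel dpc16 is the top point for Fosl1 (245), Jun (1694), Junb (1218) and Atf3 (1737), and in the lower panel for Jun (910).

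Among the Fos family, Fosl1 (FRA1), a member tied to wound edge and activated epidermis, differed most between the libraries. Its level in keratinocyte-like cells was 82.9 CPM in NP (95% interval 75.1 to 91.4), 245 in dpc16 (236 to 255) and 40.1 in dpp42 (34.1 to 46.8). None of these intervals overlap. The dpc16 level was 2.96 times that of NP (2.66 to 3.29), and the dpp42 level was 2.07-fold lower than NP (1.72 to 2.50). Fos, the founding member of the family, measured 2027, 2340 and 1682 CPM, so dpc16 was again highest and dpp42 lowest, but the ratio of dpc16 to NP was 1.15 (1.13 to 1.18). Fosb, its close relative, ran in the same order at 530, 611 and 450 CPM, with the same ratio of 1.15 (1.10 to 1.21). Fosl2 (FRA2) was flat, at 87.4, 87.2 and 99.2 CPM, and its dpc16 to NP ratio of 0.997 had an interval of 0.889 to 1.12.

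In the Jun family, Jun, the partner most Fos proteins use, was at 749, 1694 and 648 CPM in NP, dpc16 and dpp42. The dpc16 library was the high one and the other libraries lay close together. The ratio of dpc16 to NP was 2.26 (2.18 to 2.34). Junb, a Jun protein that often restrains Jun, showed the same shape at 614, 1218 and 499.5 CPM, with a ratio of 1.99 (1.91 to 2.07). Jund, the family member that is made steadily in most cells, was at 993, 1088 and 901 CPM, a ratio of 1.10 (1.06 to 1.13). Atf3 was at 914, 1737 and 622 CPM. Its dpc16 level was 1.90 times that of NP (1.84 to 1.96), and its dpp42 level was 1.47-fold lower than NP (1.399 to 1.54), just short of the size used.

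Set against NP, the dpp42 library had 1 member past the size rule, Fosl1, which was lower, and none higher, where 4.62% of 7964 genes were higher and 2.71% lower. Atf3 joins it as lower, at 1.51- to 1.56-fold, under 6 other settings. Set against dpc16, dpp42 had 4 members lower and none higher, where 22.1% of 8047 genes were higher and 8.72% lower. Fosl1 was 6.12-fold lower (5.22 to 7.23), Atf3 2.79-fold (2.68 to 2.91), Jun 2.62-fold (2.51 to 2.73) and Junb 2.44-fold (2.33 to 2.56). Fos was 1.39-fold lower, and passes the size under 6 other settings with 1.55 to 1.72. The 3 comparisons share libraries, so the dpc16 value enters both of those that contain it.

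The share of keratinocyte-like cells with a UMI gave the same order after each cell was thinned to 1000 UMIs, a depth every kept cell reached. In the order NP, dpc16 and dpp42, Jun was then found in 42.8, 59.6 and 35.4% of cells (unthinned 67.2, 88.2 and 64.8%). Fosl1 was found in 4.55, 14.4 and 3.09% (unthinned 13.6, 31.6 and 8.44%). Fos went the other way from its summed level between NP and dpc16, with 62.4, 60.4 and 52.5% of cells, so no order is read for it. Cells holding 4 or more of the 8 genes at that depth were 37.6% of NP (34.6 to 40.7), 49.6% of dpc16 (47.3 to 52.0) and 26.9% of dpp42 (23.6 to 30.3). Median depths before thinning were 3176, 4487 and 3449 UMIs.

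In keratinocyte-like cells several members tended to share cells with Fos. Within keratinocyte-like cells thinned alike, Fosb was found in 45.9, 51.3 and 41.8% of cells with a Fos UMI in NP, dpc16 and dpp42. It was found in 11.6, 15.5 and 13.6% of those without. Atf3 was found in 52.5, 70.7 and 46.4% of Fos-positive cells and in 21.6, 32.5 and 10.7% of the rest. Fosl1 did not follow Fos in NP, where it was in 4.13% of cells with Fos (2.71 to 5.99) and 5.26% of those without (3.24 to 8.01). In dpc16 it was in 17.3% (15.1 to 19.7) and 10.0% (7.90 to 12.5). Fosl2 was in 8.73 and 8.95% of NP cells with and without Fos. In dpc16 fibroblast-like cells Atf3 was in 28.6% of cells with Fos and 22.5% of those without, with intervals that overlap. Jun was in 48.8 and 35.2% of them, and Fosb in 26.1 and 15.9%, with intervals apart. In NP fibroblast-like cells Jun was in 26.5 and 24.2%. Each class pools clusters with different AP-1 levels, and sharing inside clusters was not examined.

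Keratinocyte-like cells fell into clusters, 11 of which had at least 20 cells in both NP and dpc16. These separate the members further. Fosl1 was at least 1.5-fold higher in dpc16 in 7 of the 9 clusters where it was measured, and lower in none. Jun was higher in 6 of 11, Junb in 5 and Atf3 in 5, with Atf3 lower in 1, the sebaceous gland-like cluster 12 (led by Cers4 and Cidea). Fos was higher in 2 and lower in 2, Fosb higher in 2 and Jund higher in 2. Fosl2 was higher in 3 and lower in 2. Over all genes measured in a cluster, 7.51 to 30.1% were 1.5-fold higher and 16.8 to 33.8% lower.

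**Figure D2:**
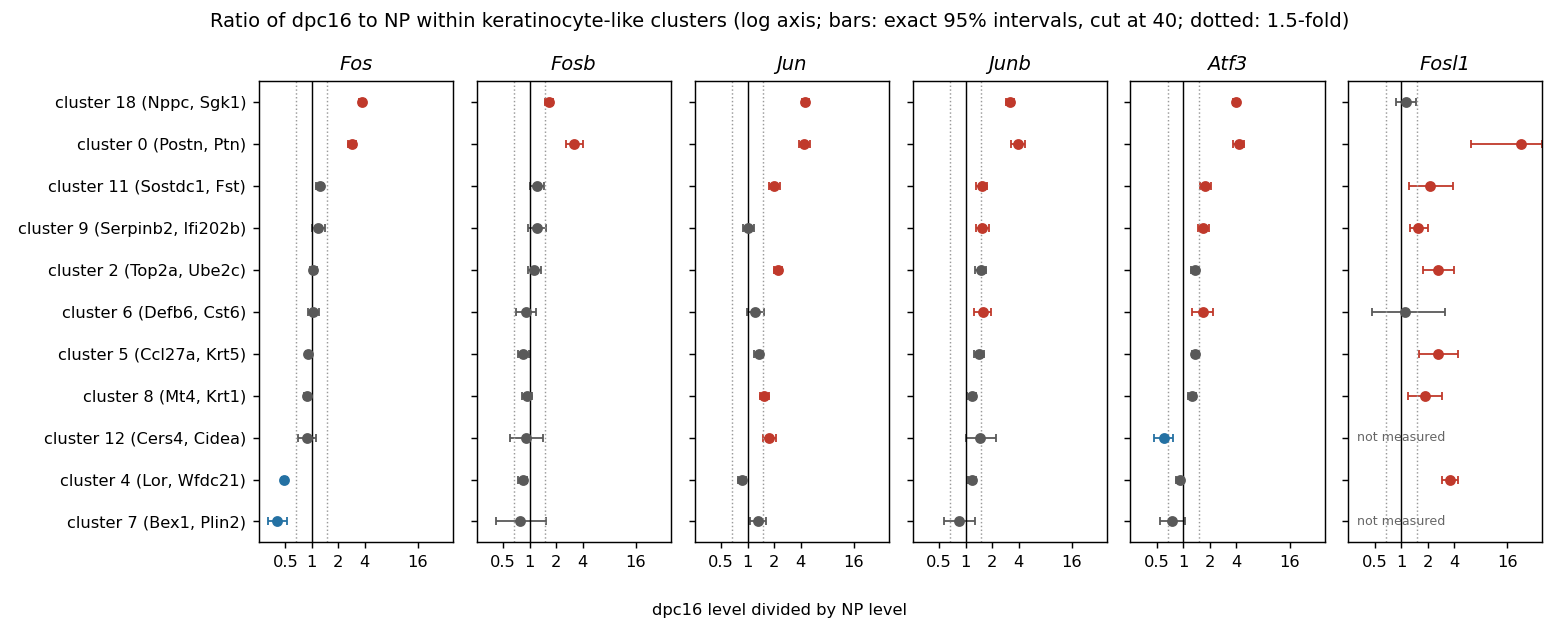
Ratio of the dpc16 to the NP level (log axis, bars are exact 95% intervals, the longest drawn to the edge) of 6 AP-1 genes within 11 keratinocyte-like clusters, each named by its number and its leading genes. Red and blue points lie past 1.5-fold higher or lower. Clusters 0 and 18 lie to the right for Fos, Fosb, Jun, Junb and Atf3, whereas Fosl1 lies to the right in most clusters but not in cluster 18.

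In clusters 0 and 18 most members were far above NP. Cluster 0 (80, 284 and 93 cells) was bulge-like by its markers and led by Postn, Ptn and Sfrp1, with the follicle stem cell gene Lhx2 among its leading genes. There Fos was at 2414, 6892 and 2433 CPM in NP, dpc16 and dpp42, 2.86-fold higher in dpc16 than NP (2.60 to 3.14). Jun was at 917, 4035 and 953.5 CPM, Junb at 640, 2492 and 709 CPM, and Atf3 at 1134, 4795 and 796 CPM. In each case dpc16 stood alone, and for Fos, Jun and Junb the other libraries were close to each other. For Atf3, dpp42 lay below NP. Fosl1 in this cluster rested on 2 UMIs in NP (10.1 CPM) and 219 in dpc16 (230 CPM), a ratio of 22.8 with an interval of 6.25 to 190.

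Cluster 18 (53, 87 and 54 cells) scored highest for the markers of basal interfollicular keratinocytes. It was led by Nppc, a natriuretic peptide, and included Lgr5, a follicle stem cell marker, among its leading genes. Sgk1, Dusp6 and Hbegf, which are on the immediate early, phosphatase and AP-1 target lists used below, were among them too. Dusp6 and Hbegf were not left out of the clustering, so this cluster may not be defined apart from such genes. It held the highest Fos, Jun, Junb, Jund and Atf3 levels of any keratinocyte-like cluster in dpc16. Fos was at 3544, 13103 and 4976 CPM, and Jun at 1792, 8116 and 1826 CPM. The ratios of dpc16 to NP were 3.70 for Fos (3.45 to 3.97) and 4.53 for Jun (4.11 to 4.99). Atf3 was at 2063, 8138 and 1707 CPM. Fosl1 differed here from its relatives, at 377, 422 and 105 CPM, and its dpc16 to NP ratio was 1.12 whose interval, 0.866 to 1.45, includes 1.

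Cluster 9 (24, 168 and 15 cells) had the highest Fosl1 level in NP and dpc16 among clusters with at least 20 cells there. Besides Fosl1, its leading genes included Serpinb2, Ifi202b, the activated keratin Krt16, the growth factor Epgn and Thbs1. Serpinb2, Krt16 and Thbs1 are on the AP-1 target lists used below and were not left out of the clustering. Fosl1 was at 781 CPM in NP and 1221 in dpc16, 1.56-fold higher (1.25 to 1.98), while Jun was at 2016 and 2039 CPM, a ratio of 1.01 (0.877 to 1.17). This cluster held 49.96% of the Fosl1 UMIs of keratinocyte-like cells in dpc16 and 10.0% of all their UMIs. In NP it held 19.9% of the Fosl1 UMIs and 2.11% of all UMIs, while cluster 18 held 25.3 and 5.56%. In dpp42 cluster 9 held 21.9% of the Fosl1 UMIs and cluster 18 held 18.1%. The dpc16 library thus had both more cluster 9 cells and, inside cluster 9, a higher Fosl1 level. Without cluster 9 the log2 ratio of Fosl1 over the class fell from 1.57 to 1.01, and it was 0.84 with shared clusters weighted equally.

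Clusters 0, 9 and 18, singled out after their values were seen, held 30.6% of the keratinocyte-like cells and 22.2% of their UMIs in dpc16. Over the same library they held 64.1% of the Fosl1 UMIs, 58.4% of Atf3, 54.8% of Junb, 52.3% of Fos, 51.5% of Fosb and 49.3% of Jun. Jund, at 38.4%, and Fosl2, at 34.6%, were less concentrated. In NP the 3 clusters held 11.7% of the UMIs, 45.7% of Fosl1 and 16.05 to 27.8% of the other members. With cluster 0, 9 or 18 left out in turn, Fosl1, Jun, Junb and Atf3 were still at least 1.5-fold higher in dpc16 than in NP.

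**Figure D3:**
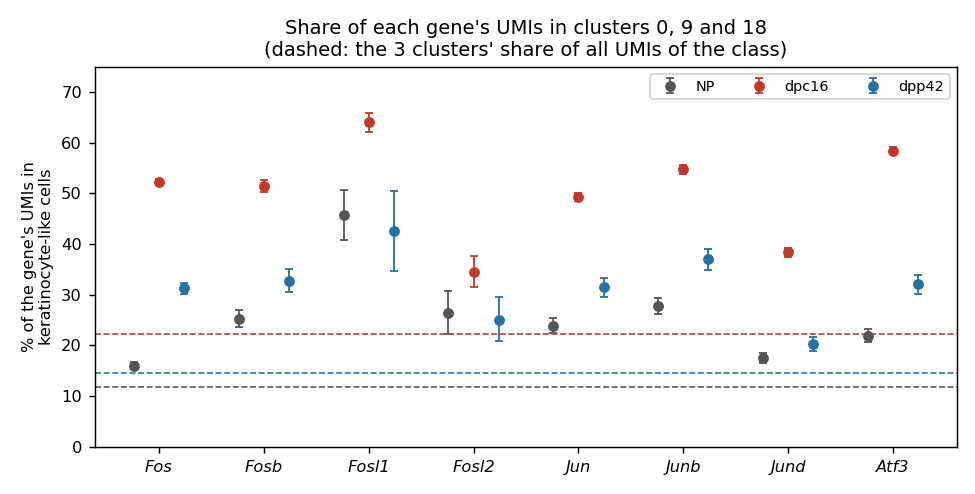
Percent of each gene's UMIs in keratinocyte-like cells that came from clusters 0, 9 and 18, by library, with exact 95% intervals, and dashed lines for the same clusters' share of all UMIs (NP 11.7, dpc16 22.2 and dpp42 14.6%). In dpc16 all 8 points lie above the dashed line, from 34.6% for Fosl2 to 64.1% for Fosl1.

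Some clusters moved differently. In cluster 4, led by the cornified layer genes Lor and Flg2 (98, 76 and 64 cells), Fos was at 1682, 817 and 1108 CPM, so dpc16 was the lowest library, 2.06-fold below NP (1.92 to 2.21). Jun (523, 453 and 292 CPM) and Atf3 (708, 641 and 418 CPM) stayed within 1.5-fold between NP and dpc16. Fosl1 was nevertheless higher in this cluster too, at 78.5, 278 and 54.5 CPM, a dpc16 to NP ratio of 3.54 (2.86 to 4.41). In cluster 7, led by Bex1 and Plin2 (26, 74 and 30 cells), Fos was 2.47-fold lower in dpc16 than NP (1.93 to 3.13). Fos thus differed in direction between clusters, and its class ratio of 1.15 became 1.61 with shared clusters weighted equally.

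Heat shock genes, another set induced by stress, moved with the dpc16 library in keratinocyte-like cells. Their summed level was 8268 CPM in NP, 18405 in dpc16 and 8898 in dpp42. In cluster 0 it was 10895, 34999 and 9929 CPM, and in cluster 18 it was 14776, 37877 and 17741 CPM, whereas in cluster 4 it was 8180, 9621 and 8239 CPM. As a ratio of dpc16 to NP, the heat shock sum was largest in cluster 6, led by Defb6 and Cst6, at 3.61, followed by cluster 0 at 3.21, cluster 2 at 2.76 and cluster 18 at 2.56. The heat shock ratio was smallest in cluster 4, at 1.18. In cluster 6 the dpc16 to NP ratio was 1.03 for Fos (0.893 to 1.20), 1.22 for Jun (0.974 to 1.55) and 1.65 for Atf3 (1.27 to 2.19). A relation between the heat shock and AP-1 ratios over the clusters was not tested. Median mitochondrial shares of keratinocyte-like cells were 3.49, 4.30 and 4.28%. All libraries went through 30 minutes in 0.25% trypsin, and its part in these levels was not tested. Barcodes left out for mitochondrial UMIs (40, 458 and 112) had 1085, 1285 and 880 CPM of Fos and 405, 1472 and 332 CPM of Jun. Leaving heat shock, immediate early and member UMIs out of the denominator gave dpc16 over NP log2 ratios of 1.59, 1.20, 1.02 and 0.95 for Fosl1, Jun, Junb and Atf3.

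The second comparison was the same one in fibroblast-like cells, numbering 100, 1122 and 111 cells. Here 1 member, Jun, was at least 1.5-fold higher in dpc16 than NP and 1 member, Fosl2, lower, where 20.5% of 8116 genes were higher and 33.2% lower. The members' median log2 ratio was 0.05, against -0.22 over all measured genes. The fibroblast-like class was made of different clusters in each library. In NP, cluster 1 (led by Ccl2, Tnfaip6 and Ccl7) held 44 cells and cluster 20 held 29, while dpc16 was mainly clusters 22 (331 cells), 16 (297), 27 (256) and 20 (172), and dpp42 clusters 20 (60) and 16 (29).

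Jun was at 338 CPM in NP (273 to 414), 910 in dpc16 (883 to 937) and 283 in dpp42 (225 to 351). Only the dpc16 interval stands apart, and its ratio to NP was 2.69 (2.19 to 3.33). The difference was also present inside both clusters that had 20 or more cells in NP. In cluster 1 Jun was at 217, 648 and 168 CPM, a dpc16 to NP ratio of 2.99 (1.90 to 4.82), and in cluster 20 at 255, 861 and 293 CPM, a ratio of 3.37 (2.14 to 5.64). Summed heat shock genes in fibroblast-like cells were at 6919, 14357 and 6304 CPM, in the same order as Jun between NP and dpc16, and their part was not tested. Junb was at 1084, 1045 and 407 CPM, so dpp42 was the odd library, 2.66-fold lower than NP (2.15 to 3.32). Jund was at 1256, 1453 and 1221 CPM, all within 1.5-fold.

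Fosl2 was at 158 CPM in NP (115 to 213), 64.0 in dpc16 (57.1 to 71.4) and 128 in dpp42 (89.8 to 176). The dpc16 interval lies under both others, 2.47-fold below NP (1.76 to 3.40). It was also lower in dpc16 within cluster 1 (3.19-fold, 1.33 to 8.76) and cluster 20 (2.32-fold, 1.04 to 4.66). Fos was at 990, 1426 and 1273 CPM and its dpc16 to NP ratio was 1.44 (1.28 to 1.63), which passes 1.5-fold under 5 other settings with 1.51 to 1.89. Fos also marks the clusters apart, with 177, 380 and 461 CPM in cluster 1 and 1438, 1822 and 1435 CPM in cluster 20. Fosb was flat at 313, 289 and 286 CPM, and Atf3 was at 396, 443 and 279 CPM. Fosl1 rested on 20, 242 and 7 UMIs, or 72.0, 48.9 and 24.1 CPM, with intervals that overlap between NP and dpc16. In cluster 1 it was at 112, 138 and 126 CPM, from 14 UMIs in NP and 16 in dpc16.

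The dpp42 library against NP had 2 members lower in fibroblast-like cells, Junb and Fosl1 (2.98-fold, 1.21 to 8.35, from 7 and 20 UMIs), and none higher, where 21.7% of 3808 genes were higher and 14.6% lower. Fosl1 falls under the minimum level with cells thinned or with classes from markers alone. Atf3 was 1.42-fold lower, and passes the size under 6 other settings with 1.55 to 2.13. Against dpc16 it had 4 lower and 1 higher, where 41.2% of 8559 genes were higher and 13.5% lower. Jun was 3.22-fold lower (2.59 to 4.05), Junb 2.57-fold (2.14 to 3.11) and Atf3 1.59-fold (1.27 to 2.004). Fosl1 was 2.02-fold lower with an interval, 0.967 to 5.09, that includes 1. Fosl2 was the 1 member higher, 1.99-fold (1.38 to 2.81). With at most 5% mitochondrial UMIs or without the cells in the top 5% of UMIs, Atf3 was 1.49- and 1.48-fold lower and so not past the size.

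RNA of the other class was present in both. The keratinocyte markers reached 7.93, 8.26 and 10.3% of their keratinocyte-like level in fibroblast-like cells of NP, dpc16 and dpp42. Fosl1 in fibroblast-like cells was at 86.8, 19.9 and 60.2% of its keratinocyte-like level and Jun at 45.2, 53.7 and 43.6%, above the share of the markers in each library. After thinning, Krt14 was in 11, 25.9 and 14.4% of fibroblast-like cells, and the fibroblast gene Col1a2 in 2.97, 11.6 and 3.23% of keratinocyte-like cells. Summed fibroblast markers in keratinocyte-like cells were 139, 762 and 205 CPM, so this foreign RNA was highest in the dpc16 library as well. At the thinned depth Fosl1 was in 4, 4.55 and 3.60% of fibroblast-like cells, under those Krt14 shares, and these shares are not read as expression. The part of free RNA in the levels was not tested.

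The third comparison was between cell classes within a library, over classes with at least 20 cells there. In NP and dpp42, respectively, 3 and 4 classes could be compared, and in dpc16 there were 7. The range from the highest to the lowest class passed 4-fold for Fosl2 in NP, for Fosl1 and Fosl2 in dpc16, and for Fos, Fosb, Fosl2 and Atf3 in dpp42. Over all genes that range passed 4-fold for 22.1, 54.7 and 29.7% of genes in NP, dpc16 and dpp42. Of the 8 members, 1, 2 and 4 passed in the same order, and no test was made of these shares.

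**Figure D4:**
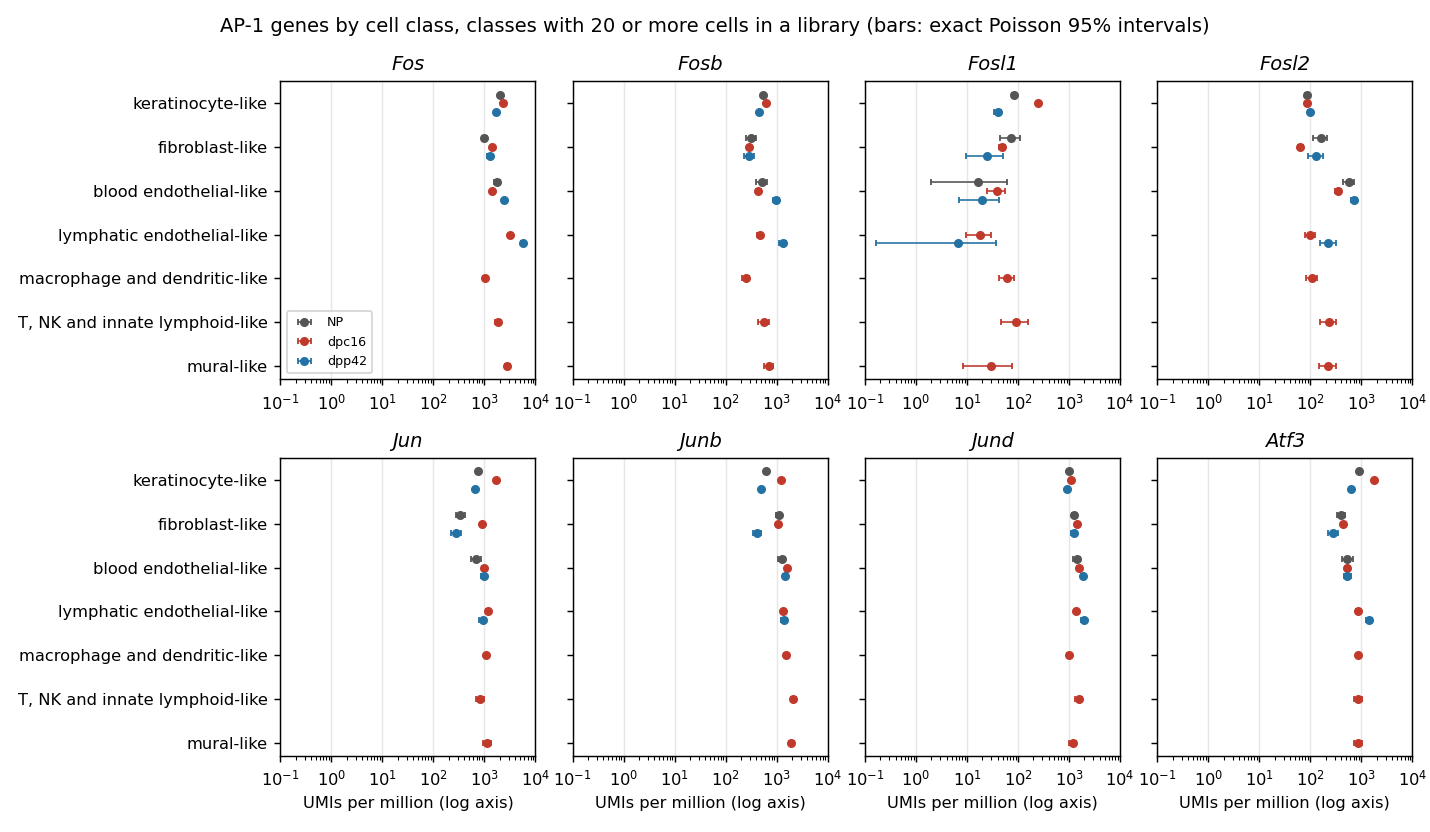
Levels of each AP-1 gene (UMIs per 1000000, log axis) by cell class and library, for classes with 20 or more cells in a library, with exact Poisson 95% intervals. Fosl2 is highest in blood endothelial-like cells in all 3 libraries, and Fosl1 in dpc16 ranges from 17.6 in lymphatic endothelial-like to 245 in keratinocyte-like cells.

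Fosl2 was the only member whose class range passed 4-fold in each library. Its level in blood endothelial-like cells was 562 CPM (437 to 713) in NP, against 351 (306 to 400) in dpc16 and 720 (629 to 821) in dpp42. It was the highest class in each library and apart from the next by interval in NP and dpp42. In dpc16 the T, NK and innate lymphoid-like cells followed at 227 CPM, with an interval of 153 to 324 that overlaps. Keratinocyte-like cells were the lowest class for Fosl2 in NP and dpp42, and fibroblast-like cells in dpc16. The range was 6.43-, 5.48- and 7.26-fold. After thinning, Fosl2 was found in 48.8, 32.8 and 44.9% of blood endothelial-like cells and in 8.81, 8.40 and 11.3% of keratinocyte-like cells. These endothelial cells numbered 41, 128 and 89.

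For Fosl1 the highest class was a different one. Keratinocyte-like cells were highest in all 3 libraries, but by counting error they stood apart from every other class in dpc16 alone. There the order was 245 CPM in keratinocyte-like, 90.7 in T, NK and innate lymphoid-like (12 UMIs), 59.6 in macrophage and dendritic-like, 48.9 in fibroblast-like, 37.9 in blood endothelial-like, 30.2 in mural-like (4 UMIs) and 17.6 in lymphatic endothelial-like cells. From the second to the sixth place neighbouring intervals overlap, as does that of the last with the mural-like cells. In NP, 82.9 CPM in keratinocyte-like cells was not separated from 72.0 in fibroblast-like cells.

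Lymphatic endothelial-like cells had the highest Fos levels, at 3200 CPM in dpc16 (3072 to 3332) and 5661 CPM in dpp42 (5288 to 6052), from 141 and 34 cells. In dpc16 the interval overlaps that of mural-like cells, at 2820 CPM (2542 to 3121). In dpp42 they were also the highest class for Fosb (1306 CPM), Atf3 (1385 CPM) and Jund (1926 CPM), the last with an interval that overlaps the 1870 CPM of blood endothelial-like cells. Between dpc16 and dpp42, Fos was 1.77-fold higher (1.63 to 1.91) and Fosb 2.82-fold higher (2.36 to 3.37) in dpp42 in these cells, and Jun was 0.788 times its dpc16 level (0.654 to 0.944). Fosl2 (2.23-fold) and Atf3 (1.65-fold) were higher there too, where 23% of 5476 genes were higher and 22.5% lower. Blood endothelial-like cells also had more Fos, Fosb and Fosl2 in dpp42 than in dpc16, at 1.71-, 2.23- and 2.05-fold. Fosl1 was 1.96-fold lower with an interval, 0.780 to 5.86, that includes 1. Of 5202 genes in that class, 23.6% were higher and 17.2% lower. Jun and Junb, which were lower in dpp42 keratinocyte-like cells, stayed within 1.5-fold in both endothelial classes. In blood endothelial-like cells the dpp42 to dpc16 ratio was 0.985 for Jun (0.855 to 1.13) and 0.897 for Junb (0.801 to 1.00). The difference between classes was not tested.

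Keratinocyte-like against fibroblast-like levels could be compared in all 3 libraries. In NP 4 members were 1.5-fold higher in keratinocyte-like cells and 2 lower, where 39.6% of all measured genes were higher and 26.2% lower. The counts were 5 and 0 in dpc16 (33.6 and 25.5% of genes) and 4 and 0 in dpp42 (32.3 and 29.1%). Atf3 was 2.31-, 3.92- and 2.23-fold higher in keratinocyte-like cells of NP, dpc16 and dpp42, Jun 2.21-, 1.86- and 2.29-fold, and Fosb 1.69-, 2.12- and 1.57-fold. Fos was 2.05- and 1.64-fold higher in NP and dpc16 and 1.32-fold in dpp42. The dpc16 value of Fos fell to 1.33 without cluster 0 and to 1.38 without cluster 18, under the size used (also with the members kept in the clustering, 1.30, and at Leiden resolution 2, 1.44). Those of Fosb fell to 1.45 in NP and 1.32 in dpp42 without cluster 18. Fosl1 was 5.02-fold higher in dpc16 (4.40 to 5.75), but 1.15 (0.736 to 1.91) in NP and 1.66 (0.788 to 4.2) in dpp42 with intervals that include 1, and the dpp42 ratio was kept past the size in 8 of 13 settings. It was 1.01 with cells thinned, 1.32 without cluster 9, 1.42 at Leiden resolution 2 and 1.46 with no mitochondrial limit or without cluster 18. Fosl2 and Junb were lower in keratinocyte-like cells of NP, by 1.81- and 1.77-fold, or 1.49- and 1.39-fold with cells thinned. Jund was within 1.5-fold in all 3 libraries, and its range over all classes was the narrowest of the members in NP and dpc16, 1.42- and 1.54-fold.

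Likeness was measured across 52 sums of a cluster in a library with at least 30 cells, as the Pearson correlation of log2(CPM + 10) over 7753 genes. These sums come from 24 clusters of the same 3 libraries and are not independent. Fos and Fosb were each other's nearest gene, at 0.92. Junb was nearest to Ppp1r15a (0.94), Gadd45b (0.91) and Csrnp1 (0.90), Atf3 to Nr4a1 (0.90), Ier2 (0.87) and Klf6 (0.85), and Jun to Ier2 (0.88), the heat shock gene Dnajb1 (0.86) and Atf3 (0.81). Jund was nearest to Junb (0.87), Socs3 (0.87) and Dusp1 (0.85). Fosl1 was nearest to Nr4a1 (0.80), Tnfrsf12a (0.76) and Klf6 (0.73), and Fosl2 to Ddx3x (0.83), Cmip (0.80) and Cdk9 (0.80). The lists nearest to Fos also held Zfp36l2 (0.88) and Gm26532 (0.86), and those nearest to Fosb held Arl13b (0.89) and Amd1 (0.86). With the other members, Fosl2 had correlations of 0.05 (Fosl1), 0.15 (Jun), 0.19 (Atf3), 0.24 (Fos), 0.32 (Jund), 0.36 (Junb) and 0.41 (Fosb), and the lowest between any other pair was 0.46, for Fos and Fosl1.

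Other genes around AP-1 were counted from lists in dpc16 over NP. Each count is to be read against all measured genes, of which 9.57% were higher and 21.1% lower in keratinocyte-like cells, and 20.5% higher and 33.2% lower in fibroblast-like cells. In keratinocyte-like cells 16 of 31 measured immediate early genes outside AP-1 were higher and none lower, with a median log2 ratio of 0.61. Ier3, an immediate early survival gene, was at 144 and 462 CPM in NP and dpc16 (3.20-fold), Cyr61, a matrix-bound signalling protein, at 220 and 533 CPM (2.42-fold), the kinase gene Sgk1 at 76.8 and 198 CPM (2.58-fold) and the small GTPase gene Rhob at 51.4 and 108 CPM (2.11-fold). In fibroblast-like cells 4 of 30 were higher and 11 lower, with a median of -0.21 beside -0.22 for all genes, so the list lay close to the background there. There Ier3 (288 and 293 CPM) and Cyr61 (1141 and 1131 CPM) were level between NP and dpc16. The heat shock list, by contrast, was higher in both classes, with 10 of 12 genes in keratinocyte-like and 9 of 12 in fibroblast-like cells and none lower. Hspa1a, an inducible HSP70 chaperone, was at 821 and 3382 CPM in keratinocyte-like cells and at 1397 and 4192 CPM in fibroblast-like cells.

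**Figure D5:**
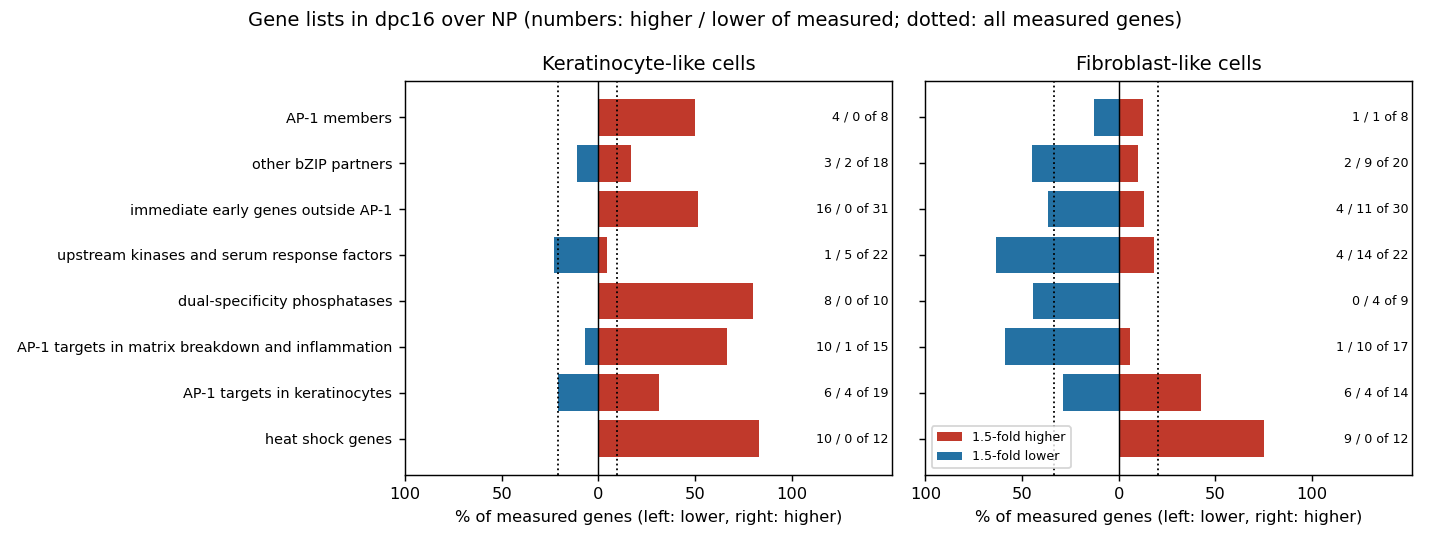
Percent of the measured genes of each list at least 1.5-fold higher (red, right) or lower (blue, left) in dpc16 than in NP, in keratinocyte-like and fibroblast-like cells, with counts at the right and dotted lines for all measured genes. In keratinocyte-like cells every bar on the right passes the dotted line of all genes (9.57%) except that of the upstream kinases (1 of 22 genes). In fibroblast-like cells the immediate early bar on the left (11 of 30 genes) ends near its dotted line (33.2%).

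Dual-specificity phosphatases, which switch off the MAP kinases that activate AP-1, were higher for 8 of 10 measured genes in keratinocyte-like cells and lower for none. In fibroblast-like cells none of 9 were higher and 4 were lower, where 33.2% of all genes were lower. Dusp1 is counted here and among the immediate early genes. Dusp6 was at 49.7 and 127 CPM in keratinocyte-like cells of NP and dpc16 (2.55-fold) and at 43.2 and 20.8 CPM in fibroblast-like cells (2.08-fold lower, from 12 and 103 UMIs). Dusp4 (3.49-fold), Dusp10 (3.33-fold) and Dusp8 (2.51-fold) were higher in keratinocyte-like cells. Upstream kinases and serum response factors were not higher as a list: 1 of 22 was higher in keratinocyte-like cells, Map3k8 (1.58-fold), and 5 lower, among them Map3k5 (2.003-fold), Map3k1 (1.73-fold) and Map2k7 (1.55-fold). In fibroblast-like cells 4 of 22 were higher and 14 lower. Of the other basic leucine zipper partners, 3 of 18 were higher in keratinocyte-like cells, with Atf4 at 190 and 331 CPM (1.75-fold) and Ddit3 at 1.70-fold, and 2 were lower, Crebzf (2.18-fold) and Maf (1.92-fold). In fibroblast-like cells 2 of 20 were higher and 9 lower, against 20.5 and 33.2% of all genes.

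Textbook AP-1 targets were taken as 2 lists. Of those in matrix breakdown and inflammation, 10 of 15 were higher in dpc16 keratinocyte-like cells and 1 lower, against 1 of 17 higher and 10 lower in fibroblast-like cells, and the difference between classes was not tested. Ccl2, a monocyte chemokine, was at 22.01 and 62.1 CPM in keratinocyte-like cells of NP and dpc16, and at 4766 and 1920 CPM in fibroblast-like cells, where it leads cluster 1, which made up more of the NP cells. The fibroblast protease gene Mmp2 was at 11.8 and 41.5 CPM in keratinocyte-like cells and at 727 and 1119 CPM in fibroblast-like cells, so its keratinocyte-like level moved along with the fibroblast marker RNA given above. The part of that RNA in the list was not tested. Plaur (3.41-fold) and Hmox1 (3.01-fold) were also higher in keratinocyte-like cells. Among keratinocyte targets 6 of 19 were higher and 4 lower in keratinocyte-like cells. Krt6a, a keratin of activated and companion layer cells, was at 30.8 and 228 CPM (7.40-fold), the cornified envelope gene Lor at 243 and 897 CPM (3.69-fold), Krt16 at 90.1 and 252 CPM (2.80-fold), and Sprr1b at 52.2 and 20.1 CPM (2.59-fold lower). In fibroblast-like cells 6 of 14 of these targets were higher and 4 lower, at levels far under those of keratinocyte-like cells (Krt6a 3.60 and 35.1 CPM, from 1 and 174 UMIs).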

How the data were processed

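Single-cell 3′ libraries of abdominal skin, 1 each for NP, dpc16 and dpp42, were analysed. Values in the deposited files are whole UMI counts for each gene in each barcode, made by the authors with Cell Ranger 2.2.0 on mm10 (GRCm38), per the submitters' processing notes. Neither the annotation release nor the strand setting is given in the sources used here. The members and gene lists were chosen with earlier results of these data known.

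Kept barcodes (at least 200 genes, at most 10% mitochondrial UMIs) were clustered together with scanpy 1.11.5 (scaling to 10000 counts in each cell, log1p, 2000 genes chosen as variable over libraries, 30 components, 15 neighbours, Leiden resolution 1, seed 0), with 52 members, immediate early and heat shock genes left out of the variable genes. A cluster took the name of the marker list with the highest enrichment (20 CPM added) with at least 3 markers in 10% of its cells at over 1.4 times the 25th percentile of clusters. It stayed unnamed where markers of another class led its 10 leading genes, or where no marker did and another list was within 0.75. This rule was adjusted after the clusters were seen. A class was compared with at least 20 cells in a library. Those with 50 in every library were described in full.

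Genes entered a comparison from 10 CPM in either side and 20 UMIs over both sides, and were counted as higher or lower from a ratio of 1.5. Class ranges used a 3-count floor for the lowest class and 4-fold. Intervals are 95%: exact Poisson for levels, conditional binomial for ratios, Clopper-Pearson for shares. Log2 ratios and their medians were taken from plain ratios. The alternative with no minimum level added 0.5 UMI to each sum. Genes named from lists were up to 4 with the largest absolute log2 ratio of dpc16 over NP in keratinocyte-like cells, and the 3 most alike per member. Alternatives were other mitochondrial limits (5% or none), cells thinned to 1000 UMIs, another denominator, a mean over cells, classes from markers alone, clusters made with the members kept in, Leiden resolution 2, shared clusters weighted equally, the top 5% of cells by UMIs left out and no minimum. Scripts were tested on simulated counts. The 3-count floor was chosen after seeing the data. Other tools were Python 3.11.15, numpy 2.4.6, scipy 1.17.1, pandas 2.3.3, anndata 0.12.19, scikit-learn 1.9.0, igraph 0.11.9 and matplotlib 3.10.9.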

Additional observations from a re-analysis of the deposited data

Results flagged for a closer look

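Fos moved in opposite directions in the classes between NP and dpp42. In keratinocyte-like cells its dpp42 to NP ratio was 0.83 (2027 to 1682 CPM), and in fibroblast-like cells it was 1.29 (990 to 1273 CPM), a difference of -0.63 on the log2 scale. The difference between the classes was not tested, and neither ratio reaches 1.5-fold. Cluster 1, where Fos is low (177 CPM in NP), held 44 of 100 fibroblast-like cells in NP and 20 of 111 in dpp42, and in cluster 20 (1438 and 1435 CPM) the dpp42 to NP ratio was 0.998 (0.790 to 1.27). Within cluster 1 it was 2.61 (1.38 to 4.94), from 22 UMIs in each library, so a higher Fos level in dpp42 was also present inside that cluster.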

How the results depend on the processing

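No result changed direction past 1.5-fold. Of 33 ratios past the size used, 25 stayed past it under every alternative tried (16 for keratinocyte-like library ratios, 13 for fibroblast-like ones and 13 for class ratios). Of 255 recomputed counts of members, 49 differed from the value reported, 30 of them by 1.5 times or less and 19 by more, and the 19 follow. Of the log2 ratios of single members, 700 stayed within the counting interval of the reported ratio and 308 did not. Members lower in dpp42 than NP in keratinocyte-like cells were 2 in place of 1 with no mitochondrial limit, with cells thinned, as a mean over cells, in clusters made with the members kept in, without the top 5% of cells by UMIs and without cluster 18. Members lower in dpp42 than dpc16 there were 7 in place of 4 as a mean over cells. In fibroblast-like cells, members higher in dpc16 than NP were 2 in place of 1 with at most 5% or no limit on mitochondrial UMIs, with classes from markers alone, at Leiden resolution 2 and relative to the median of all genes. Members lower were 2 in place of 1 as a mean over cells, without the top 5% and with no minimum level. The last setting also added 0.5 UMI to each sum. Fosl1, the gene that changed, was already over the minimum, and its log2 ratio went from -0.56 to -0.59. Members lower in dpp42 than NP were 4 in place of 2 with at most 5% mitochondrial UMIs. For keratinocyte-like over fibroblast-like cells, the count lower in NP was 0 in place of 2 with cells thinned, the count lower in dpc16 was 1 in place of 0 with the members kept in the clustering, and the count higher in dpp42 was 2 in place of 4 without cluster 18. Leaving mitochondrial, ribosomal and haemoglobin UMIs out of the denominator moved the median log2 ratio of all genes for keratinocyte-like over fibroblast-like cells in NP from 0.23 to 0.54. Omitting cluster 0, 9 or 18, rescaling to the median and the denominator without stress genes were chosen after seeing the data. No paired analysis was possible because each group is 1 library. Depth limits Fosl1 in fibroblast-like cells (20 UMIs in NP and 7 in dpp42) and the blood endothelial-like values in NP (41 cells).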

Other observations

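The 3 unnamed clusters held AP-1 RNA too. In cluster 3, led by Slpi, Akr1c18 and Pdk4 (44, 191 and 60 cells), Jun was at 750 CPM in NP, 2519 in dpc16 and 834 in dpp42, while Fos was at 1084, 974 and 1111 CPM. Junb was at 298, 752 and 364 CPM, high in dpc16 like Jun. In cluster 13, led by Cyp2g1 and the fatty acid elongase gene Elovl4, Fos was at 190, 291 and 163 CPM and Junb at 85.2, 141 and 60.6 CPM. Sebaceous gland-like cluster 12, one of the named keratinocyte-like clusters, also had low Fos, at 254, 221 and 418 CPM. There dpc16 was the lowest library for Fos, unlike in cluster 13, and Jun was at 391, 689 and 388 CPM.

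In dpc16, the mural-like cluster 29 (21 cells, led by Rgs5 and Tagln) had 3648 CPM of Fos, 969 of Fosb and 2656 of Junb. Macrophage-like clusters of that library differed in Fos, at 825 CPM in cluster 10, led by Cd74 and the Langerhans cell gene Cd207, and 1434 CPM in cluster 30, led by Ccl8 and C1qb. Jund was at 647 and 1689 CPM in the same clusters.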
